A study of Mus with 8 samples.

Results

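The 36 genes described here encode 2 linked parts of mitochondrial metabolism: 17 genes of the tricarboxylic acid (TCA) cycle with 4 subunits of the pyruvate dehydrogenase complex that feeds it, and 15 genes of branched-chain amino acid (BCAA) breakdown. They were chosen by name as enzymes of these pathways, out of 30740 genes named on the arrays, and the brightest probe set of each, by its mean over all arrays, stands for the gene. All 36 had 1 probe set annotated to that gene alone, and all lay above the 95th percentile of olfactory receptor genes, a group of mostly low signal, on all 8 arrays.

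Total RNA was taken from interscapular brown adipose tissue of mice labelled C57BL/6 and female, and hybridized to 1 array per mouse. The tested mice carried the label HILPDA KO (4 arrays, replicates 1 to 4), and the others the label wild type (WT, 4 arrays, replicates 1 to 4). The product of Hilpda sits on lipid droplets and is known as an inhibitor of the lipase that starts triglyceride breakdown. No age, treatment, housing temperature, or promoter behind the deletion is given in the labels. All values are on a log2 scale, so a difference of 1 is a doubling of the signal.

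The TCA cycle oxidizes acetyl-CoA to carbon dioxide and passes the electrons to the respiratory chain. Pyruvate dehydrogenase supplies acetyl-CoA from glucose, and the breakdown of leucine, isoleucine and valine supplies acetyl-CoA, propionyl-CoA and succinyl-CoA. Brown fat is rich in mitochondria, and in mice it is known to take up and oxidize BCAA during cold exposure. Pyruvate dehydrogenase, 2-oxoglutarate dehydrogenase and the branched-chain ketoacid dehydrogenase (BCKDH) are built alike, from a substrate-specific E1, a lipoyl-bearing E2 and the same E3, encoded by Dld.

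The arrays fell into 2 sets: replicates 1 and 2 of both genotypes (set 1), where the median of all genes was 3.92 to 3.99, and replicates 3 and 4 of both genotypes (set 2), where it was 4.92 to 4.96. What separates the sets is not given in the labels, so KO and WT were compared inside each set, or over both with a term for the set. Hilpda read 4.45, 4.37, 5.60 and 5.51 in KO replicates 1 to 4, against 4.37, 4.28, 6.00 and 5.92 in WT replicates 1 to 4, a difference of 0.09 within set 1 and -0.40 within set 2 (limma adjusted p = 0.145 in set 2). Hilpda was thus not lower in set 1, and each direction below is that of the arrays labelled KO. On all arrays Xist read 3.49 to 4.10, whereas 2 Y-linked genes (Uty, Eif2s3y) lay at 8.53 to 11.01, which goes against the label female. Ucp1, which defines brown fat, read 19.68 to 19.93, at or near the highest value of each array, and Cidea 18.76 to 19.36. Other brown adipocyte markers varied more, as given with the markers of liver and skeletal muscle beside the pathways below.

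None of the 36 genes passed the test for a difference between KO and WT. With the set as a block, limma called 0 of all 30740 genes at an adjusted p under 0.05 (0% of genes tested, also in each pathway), and the adjusted p of the members was 0.983 to 0.999. At an unadjusted p under 0.05, 4 members stood out, and 4.81% of all genes did so (5.68% of the 17298 genes above the olfactory 95th percentile). They were Sdhc of the TCA cycle, higher in KO as 2.48% of all genes were at that level, and Mccc1, Pcca and Acadsb of BCAA breakdown, lower in KO as 2.33% were. The other 32 did not reach that level. The TCA cycle and pyruvate dehydrogenase genes were split between 9 higher and 12 lower, with a median difference of -0.0032. Of the BCAA genes 3 were higher and 12 lower, with a median of -0.15, whereas the median over all genes was 0.0075 and 47.4% of them were lower (53.3% of those above the olfactory 95th percentile).

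**Figure D1:**
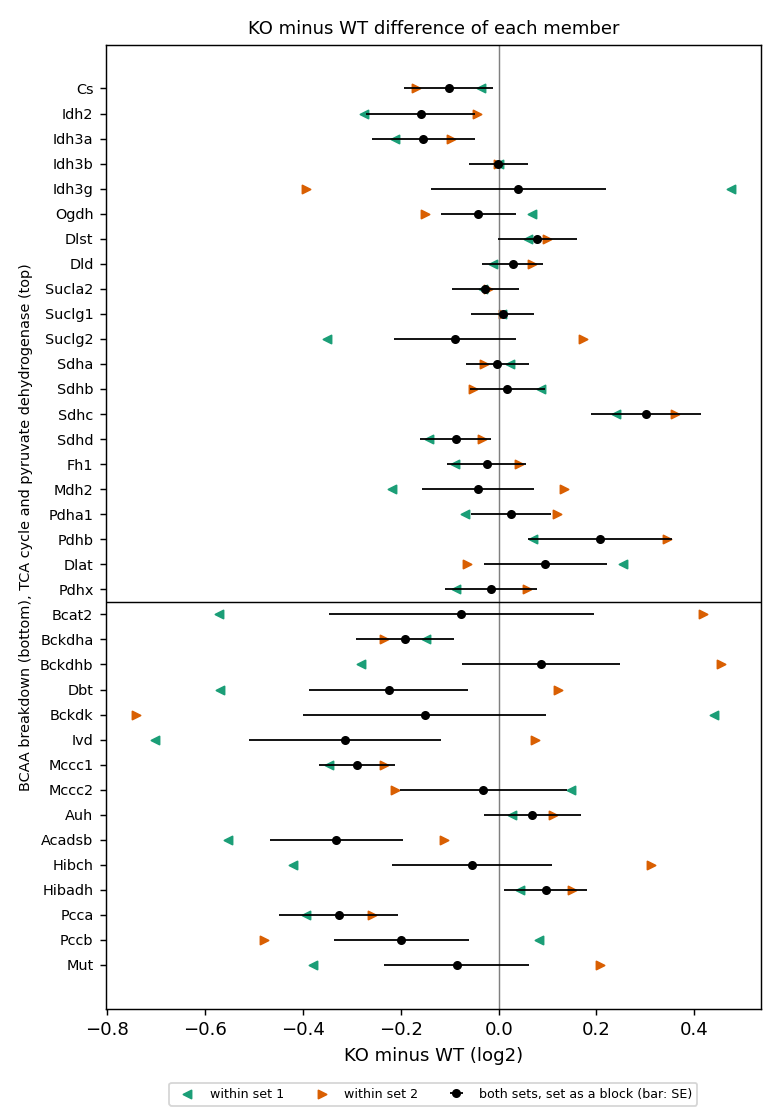
KO minus WT difference on the log2 scale (x axis) of the 36 members (y axis). Black points are the fit over both sets with its standard error, and triangles are the differences within set 1 (green, pointing left) and set 2 (orange, pointing right). The TCA cycle genes cluster around 0 except Sdhc and the spread-out Idh3g and Suclg2, and 12 of 15 BCAA genes have their black point left of 0.

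Citrate synthase (Cs), which opens the TCA cycle by joining acetyl-CoA to oxaloacetate, read 19.79, 19.78, 19.19 and 19.53 in KO replicates 1 to 4, against 19.82, 19.82, 19.47 and 19.59 in WT replicates 1 to 4. Both KO values lay below both WT values in set 1 by a few hundredths, and the groups overlapped in set 2. The difference was -0.10 (SE 0.09). Its highest value lay only 0.11 below the highest value of that array, so a higher level could hardly have been recorded. A parting of the genotypes within 1 set, here and below, was common among all genes. Of 30740 genes, 5822 had both KO values above both WT values in set 1, and 5969 had them below. In set 2 these counts were 7362 and 5861.

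The NAD-dependent isocitrate dehydrogenase, a regulated step of the cycle, has the subunits Idh3a, Idh3b and Idh3g. Idh3a differed by -0.15 (SE 0.11) and Idh2, the NADP-dependent mitochondrial enzyme, by -0.16 (SE 0.11). Idh3b had exactly the same value, 18.85, on all 4 arrays of set 1, and 18.81 to 18.90 in set 2. Such ties were common among bright genes: of 302 genes with a mean over 17, 73 had identical values on the 4 arrays of set 1 and 0 in set 2. Idh3b was the 1 member tied in this way.

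Idh3g parted the genotypes in opposite directions in the 2 sets. It read 17.16 and 17.08 in KO replicates 1 and 2, against 16.65 in both WT arrays of set 1, where the 2 WT values were identical. The order turned in set 2, at 17.48 and 17.42 in KO replicates 3 and 4, against 17.68 and 18.00 in WT replicates 3 and 4. The difference was 0.47 within set 1 and -0.39 within set 2 (SE 0.13 each), and set 2 minus set 1 was -0.87 (SE 0.18, limma adjusted p = 0.0905). That was the lowest adjusted p of any member in any comparison, and it did not pass.

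The 2-oxoglutarate dehydrogenase subunits stayed close together. Ogdh, the E1 subunit, differed by -0.04, Dlst, the E2 subunit, by 0.08, and Dld, the shared E3, by 0.03 (SE 0.06 to 0.08). Ogdh was parted too, but by little: its difference was 0.07 within set 1 and -0.15 within set 2.

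Succinyl-CoA synthetase pairs Suclg1 with either Sucla2, which forms ATP, or Suclg2, which forms GTP. Suclg1 differed by 0.0081 and Sucla2 by -0.03 (SE 0.06 and 0.07), and the groups overlapped in both sets. Suclg2 read 10.80 and 11.05 in KO, against 11.19 and 11.37 in WT, in set 1. It read 12.52 and 12.46 in KO, against 12.29 and 12.34 in WT, in set 2. Its values did not overlap in either set, with differences of -0.35 within set 1 and 0.17 within set 2 (set 2 minus set 1: 0.52, limma adjusted p = 0.217).

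Succinate dehydrogenase, which is also complex II of the respiratory chain, has 2 catalytic subunits (Sdha, Sdhb) and 2 membrane anchors (Sdhc, Sdhd). Sdhc read 13.05, 12.75, 14.03 and 13.88 in KO replicates 1 to 4, against 12.65, 12.66, 13.79 and 13.40 in WT replicates 1 to 4. Both KO values were above both WT values in each set, which was true of 2.85% of all genes and of no other member. The difference was 0.30 (SE 0.11, unadjusted p = 0.0299, limma adjusted p = 0.983), with 0.24 within set 1 and 0.36 within set 2. Its partner Sdhd differed by -0.09 (SE 0.07), Sdha by -0.0032 (SE 0.06) and Sdhb by 0.02 (SE 0.08). With single arrays left out Sdhc ranged from 0.21 to 0.37, and without KO replicate 1 the unadjusted p was 0.0859.

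The last steps were close to even. Fumarase (Fh1) differed by -0.02 (SE 0.08), and malate dehydrogenase (Mdh2) by -0.04 (SE 0.11), with -0.22 within set 1 and 0.13 within set 2.

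No pyruvate dehydrogenase subunit passed the test, and none was parted in both sets. Pdha1, the E1 alpha subunit whose phosphorylation switches the complex off, read 17.73, 17.87, 18.04 and 18.08 in KO replicates 1 to 4, against 17.87, 17.87, 17.84 and 18.05 in WT replicates 1 to 4. The groups overlapped in both sets, and the difference was 0.02 (SE 0.08). Pdhb, the E1 beta subunit, differed by 0.21 (SE 0.15), of which KO replicate 4 was a large part: it read 18.74, the 3 other KO arrays 17.97 to 18.05 and WT 17.88 to 18.10, and without it the difference was 0.04. Dlat, the E2 subunit, differed by 0.10 (SE 0.13) and Pdhx, which docks E3, by -0.02 (SE 0.09). In set 1 both KO values lay above both WT values for Pdhb (0.07) and below them for Pdhx (-0.09). Of 30740 genes, 5822 were parted upward in set 1 and 5969 downward.

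**Figure D2:**
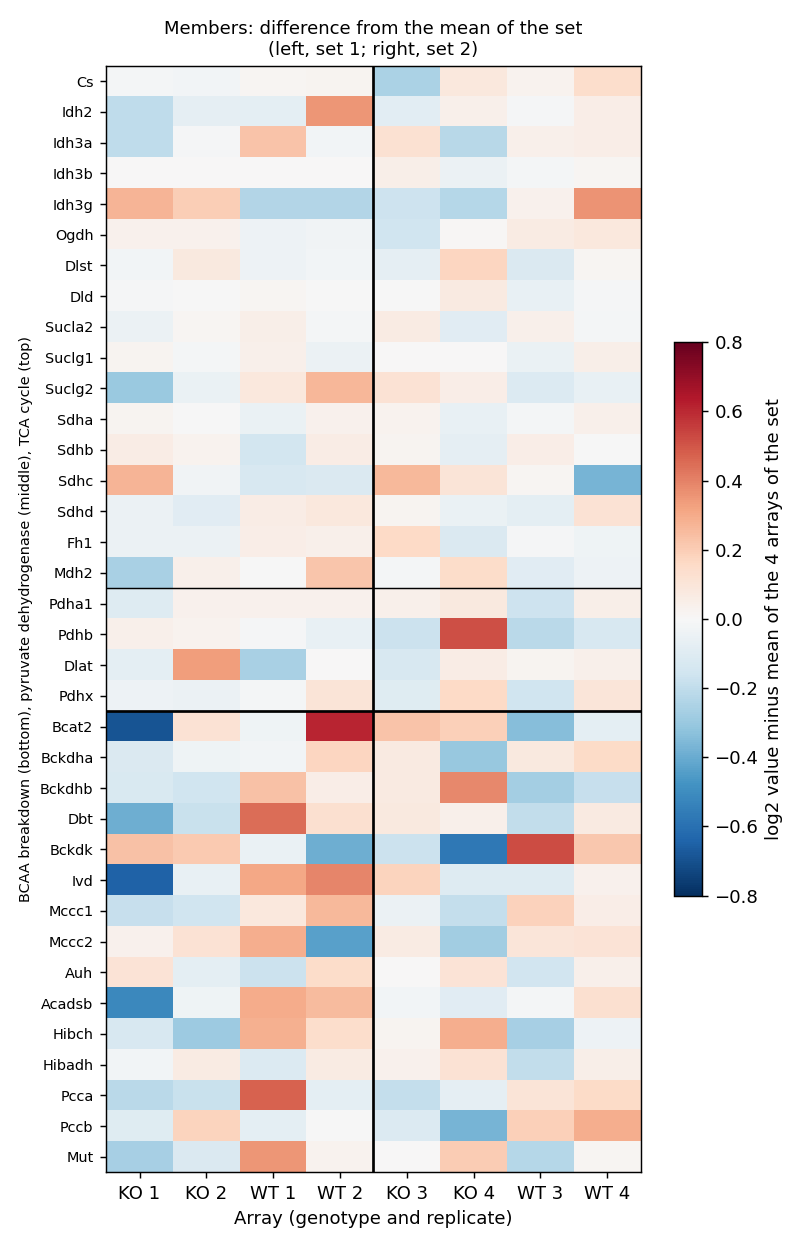
Each member (rows) on each array (columns) as log2 value minus the mean of the 4 arrays of its set, red for above and blue for below. The upper block of TCA cycle and pyruvate dehydrogenase genes is mostly pale, and the lower block of BCAA genes is blue in KO replicates 1 and 2 and red in WT replicates 1 and 2 for Dbt, Ivd, Mccc1, Acadsb, Hibch and Mut, with the palest cells in KO replicate 2 (Ivd, Acadsb) and WT replicate 2 (Mut).

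BCAA breakdown begins with the mitochondrial transaminase Bcat2. It read 7.08 and 7.88 in KO against 7.73 and 8.37 in WT in set 1, and 9.56 and 9.53 in KO against 9.00 and 9.26 in WT in set 2. The groups overlapped in set 1, and in set 2 both KO values were higher. The difference was -0.57 within set 1 and 0.42 within set 2 (SE 0.30 each).

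BCKDH is the committed step, which oxidizes the ketoacids of all 3 amino acids. Bckdha, its E1 alpha subunit, read 14.33, 14.42, 14.91 and 14.53 in KO replicates 1 to 4, against 14.42, 14.62, 14.92 and 14.99 in WT replicates 1 to 4. KO lay below WT in each set, though narrowly. The nearest arrays of set 1 read 14.415 (KO replicate 2) and 14.424 (WT replicate 1). In set 2 the nearest were replicate 3 of each genotype, at 14.91 and 14.92. The difference was -0.19 (SE 0.10, unadjusted p = 0.0936), and -0.26 to -0.11 with single arrays left out, the last without KO replicate 4. Bckdhb, the E1 beta subunit, read 13.13 and 13.09 in KO against 13.48 and 13.30 in WT in set 1. The values of set 2 were 14.26 and 14.57 in KO against 13.92 and 14.01 in WT. Its direction thus turned between the sets, with -0.28 in set 1 and 0.45 in set 2 (set 2 minus set 1: 0.74, SE 0.19, limma adjusted p = 0.137). Dbt, the E2 subunit, read 13.94 and 14.15 in KO against 14.78 and 14.46 in WT in set 1, a difference of -0.57 (SE 0.15, limma adjusted p = 0.415). Its groups overlapped in set 2, with 15.47 and 15.43 in KO against 15.20 and 15.46 in WT (difference 0.12).

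Bckdk, the kinase that phosphorylates and inactivates BCKDH, had the widest gap between the sets of all members. It read 11.36 and 11.34 in KO against 11.08 and 10.74 in WT in set 1, where KO was higher. KO was lower in set 2, with 12.36 and 11.96 in KO against 13.05 and 12.75 in WT. The difference was 0.44 within set 1 and -0.74 within set 2 (SE 0.19 each), and set 2 minus set 1 was -1.18 (SE 0.26, limma adjusted p = 0.107). Set beside the subunits it acts on, the sign of the kinase was opposite to that of Bckdhb in both sets, and in set 1 also to that of Bckdha (-0.15) and Dbt. In set 2 it had the same sign as Bckdha (-0.23), and the sign of Dbt was unsettled there (-0.01 to 0.26 with single arrays left out).

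**Figure D3:**
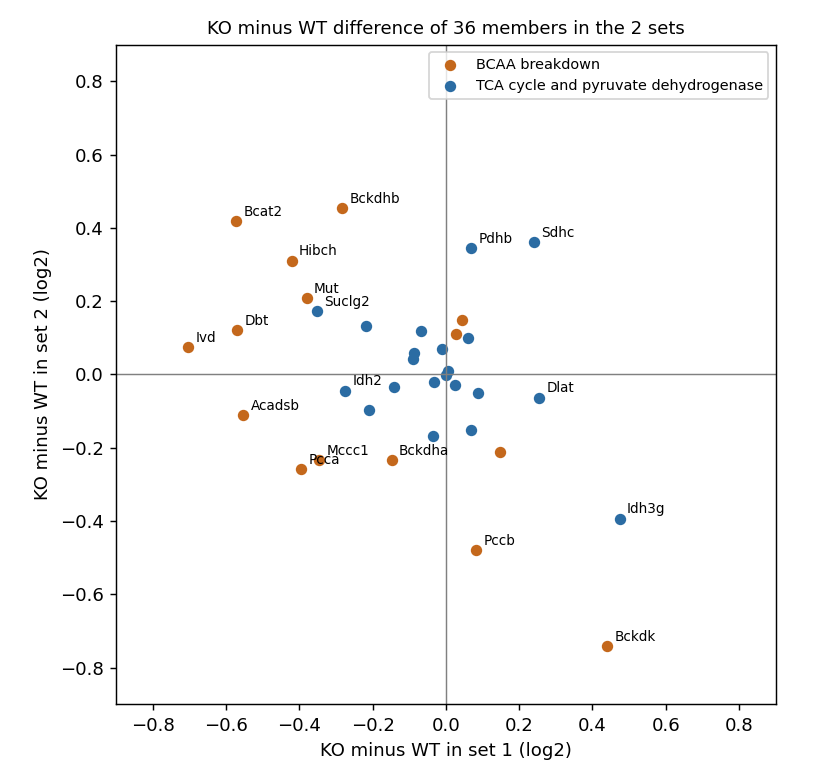
KO minus WT in set 1 (x axis) against KO minus WT in set 2 (y axis), both on the log2 scale, for 15 BCAA genes (orange) and 21 TCA cycle and pyruvate dehydrogenase genes (blue). Bckdk (0.44 and -0.74) and Idh3g (0.47 and -0.39) lie at the lower right, Bckdhb, Hibch and Bcat2 at the upper left, and Mccc1, Pcca and Acadsb at the lower left, where KO was lower in both sets.

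The leucine branch runs through isovaleryl-CoA dehydrogenase (Ivd), methylcrotonyl-CoA carboxylase (Mccc1 and Mccc2) and the hydratase Auh. Mccc1, the biotin-bearing subunit, had the smallest unadjusted p of the members. It read 10.67, 10.69, 12.26 and 12.12 in KO replicates 1 to 4, against 10.94, 11.11, 12.49 and 12.36 in WT replicates 1 to 4. Both KO values lay below both WT values in each set. The difference was -0.29 (SE 0.08, unadjusted p = 0.00661, limma adjusted p = 0.983), with -0.35 in set 1 and -0.23 in set 2, and -0.24 to -0.33 with any single array left out.

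Its partner Mccc2 differed by -0.03 (SE 0.17), and by -0.21 to 0.08 with single arrays left out. Within the sets it differed by 0.15 and -0.21 (SE 0.23 each). The sign in set 1 is unsettled: KO read 11.82 and 11.90, between WT replicate 1 (12.08) and WT replicate 2 (11.35). Ivd read 10.03 and 10.62 in KO against 10.99 and 11.07 in WT in set 1, a difference of -0.70 (SE 0.20, limma adjusted p = 0.441), the most negative of any member in that set and -0.41 without KO replicate 1. In set 2 it read 12.58 and 12.30 in KO against 12.30 and 12.44 in WT, where the groups overlapped and the difference was 0.07 (-0.07 to 0.21 with single arrays left out). Auh differed by 0.07 (SE 0.10).

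In the isoleucine branch, Acadsb oxidizes 2-methylbutyryl-CoA. It read 11.79, 12.27, 13.46 and 13.39 in KO replicates 1 to 4, against 12.60, 12.56, 13.46 and 13.60 in WT replicates 1 to 4. KO lay below WT in each set, although replicate 3 of both genotypes rounds to the same value. The difference was -0.33 (SE 0.14, unadjusted p = 0.0419, limma adjusted p = 0.983), with -0.55 in set 1 and -0.11 in set 2. With single arrays left out it ranged from -0.40 to -0.19 (without KO replicate 1), and without WT replicate 1 the unadjusted p was 0.113.

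In the valine branch, Hibch releases 3-hydroxyisobutyrate from its CoA ester and Hibadh oxidizes it. Hibch read 12.85 and 12.69 in KO against 13.26 and 13.12 in WT in set 1, and 14.15 and 14.42 in KO against 13.86 and 14.09 in WT in set 2. The genotypes did not overlap in either set and lay in opposite order, with -0.42 within set 1 and 0.31 within set 2 (set 2 minus set 1: 0.73, SE 0.20, limma adjusted p = 0.156). Hibadh was the BCAA gene with the highest difference with the set as a block, at 0.10 (SE 0.08).

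Isoleucine and valine converge on propionyl-CoA, which propionyl-CoA carboxylase (Pcca and Pccb) and methylmalonyl-CoA mutase (Mut, now named Mmut) carry to succinyl-CoA. Pcca, the biotin-bearing subunit, read 15.08, 15.12, 15.54 and 15.66 in KO replicates 1 to 4, against 15.78, 15.22, 15.84 and 15.89 in WT replicates 1 to 4. KO lay below WT in each set, and the difference was -0.33 (SE 0.12, unadjusted p = 0.0289, limma adjusted p = 0.983). With single arrays left out it ranged from -0.42 to -0.20 (without WT replicate 1), and without KO replicate 1 the unadjusted p was 0.071. Within set 1 the value rested on WT replicate 1: it was -0.39 with that array and -0.12 without it.

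Pccb read 15.48 and 15.75 in KO against 15.50 and 15.57 in WT in set 1, where the groups overlapped. In set 2 it read 15.43 and 15.16 in KO against 15.73 and 15.82 in WT, a difference of -0.48 (SE 0.14, limma adjusted p = 0.185). Mut differed by -0.38 within set 1 and 0.21 within set 2 (SE 0.15 each).

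**Figure D4:**
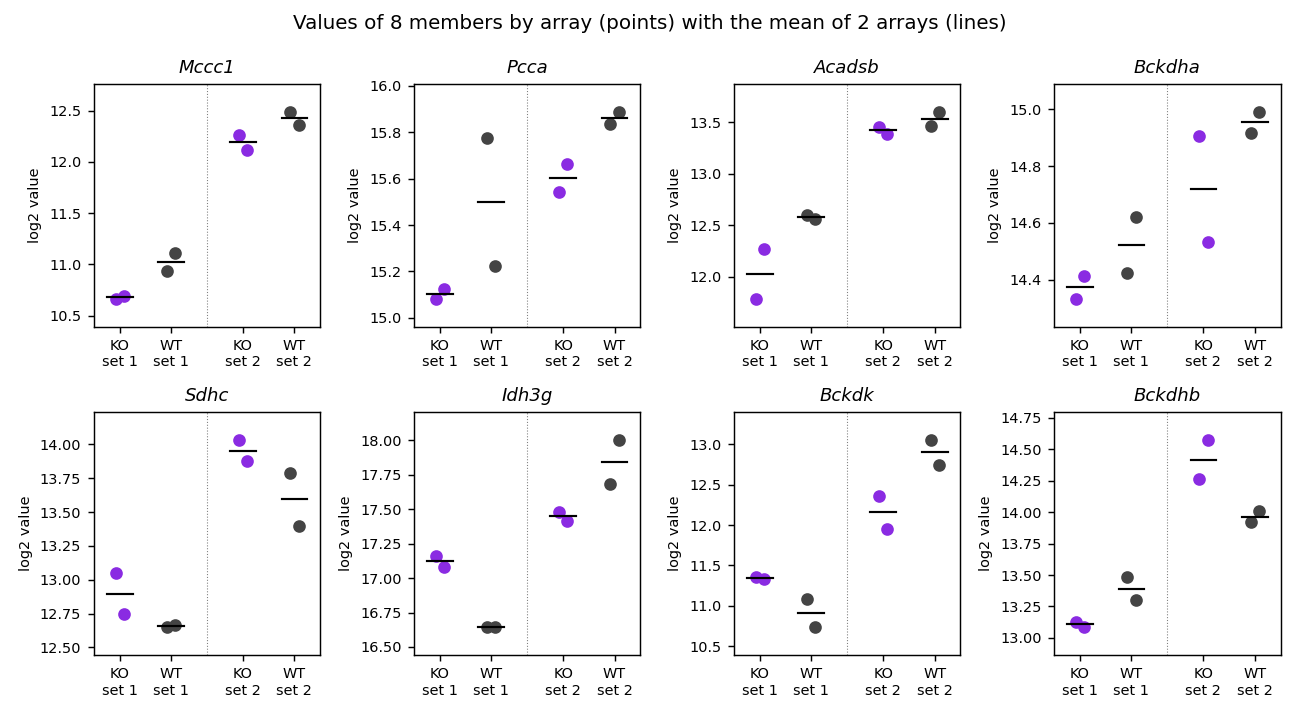
Log2 values (y axis, a separate scale for each gene) of 8 members by genotype and set, with KO in purple and WT in grey, 1 point per array and a line at the mean of 2 arrays. Mccc1, Pcca, Acadsb and Bckdha are lower in KO in both sets, Sdhc is higher in both, and Idh3g, Bckdk and Bckdhb are parted in opposite order in the sets.

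Set against each other, the pathways differed in the size of their members' differences. Within set 1 the median size of the difference, regardless of sign, was 0.38 for the BCAA genes, 0.087 for the TCA cycle and pyruvate dehydrogenase genes and 0.11 for all genes. Within set 2 it was 0.23, 0.068 and 0.14. For all genes above the olfactory 95th percentile, as all members are, it was 0.14 in set 1 and 0.19 in set 2. The median standard errors within a set were 0.15 for the BCAA genes and 0.12 for the TCA and pyruvate dehydrogenase genes. The pathways also differed in brightness: 12 of the 21 TCA and pyruvate dehydrogenase genes read above 16 on all arrays, and 0 of the 15 BCAA genes. The part of signal level in these sizes was not tested. These sizes are descriptions, with no test.

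Within set 1, 10 of 15 BCAA genes were lower in KO (median -0.35), against 12 of 21 TCA and pyruvate dehydrogenase genes (median -0.01) and 48.9% of all genes (59.2% above the olfactory 95th percentile). After quantile normalization 16 TCA and pyruvate dehydrogenase genes were higher and 5 lower in set 1 (median 0.076), and 6 BCAA genes were higher and 9 lower (median -0.14), so the direction of the TCA and pyruvate dehydrogenase genes in set 1 depends on the scaling. At an unadjusted p under 0.05, 6 BCAA genes were lower and 0 higher, namely Dbt, Ivd, Acadsb, Mccc1, Hibch and Mut, where 5.07% of all genes were lower at that level and 8.68% of genes above the olfactory 95th percentile. Of the TCA and pyruvate dehydrogenase genes 1 was lower (Suclg2) and 1 higher (Idh3g), where 2.65% of all genes were higher at that level. No member passed there (0% of all genes did).

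Within set 2 the BCAA genes were mixed, with 8 higher and 7 lower (median 0.07), where 46.4% of all genes were lower (44.7% above the olfactory 95th percentile). The TCA and pyruvate dehydrogenase genes had a median of -0.0013. Bckdhb was higher and Bckdk and Pccb were lower at an unadjusted p under 0.05, and Idh3g was the single TCA gene to reach that level, also lower. Of all genes 15.1% reached it, 8.93% higher and 6.14% lower. No member passed in set 2 (0.00325% of all genes did). After quantile normalization over all arrays the BCAA median in set 2 was -0.16, so its sign there depends on the scaling, whereas the median with the set as a block was -0.16 under that scaling and -0.17 after median centring.

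The test of set 2 against set 1 called 0 members, against 0.494% of all genes. Below an unadjusted p of 0.05 were 9 members (14.9% of all genes, 22.8% above the olfactory 95th percentile): 7 BCAA genes and 2 TCA genes. KO and WT were parted in opposite order in the sets for 6 members (Idh3g, Ogdh, Suclg2, Bckdhb, Bckdk and Hibch), or 3 TCA genes and 3 BCAA genes, which was true of 12.7% of all genes and 17.9% above that percentile. KO lay below WT in both sets for 4 BCAA genes (Bckdha, Mccc1, Acadsb and Pcca) and 0 TCA or pyruvate dehydrogenase genes, against 2.46% of all genes and 3.19% of those above the olfactory 95th percentile.

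The pathway medians by array showed the same contrast. Expressed as the difference from the set mean, the BCAA median was -0.13 and -0.06 in KO replicates 1 and 2, against 0.23 and 0.13 in WT replicates 1 and 2. In set 2 it was 0.02 and -0.07 in KO, against -0.11 and 0.05 in WT, where the groups overlapped. The TCA and pyruvate dehydrogenase median lay between -0.02 and 0.04 on all 8 arrays.

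**Figure D5:**
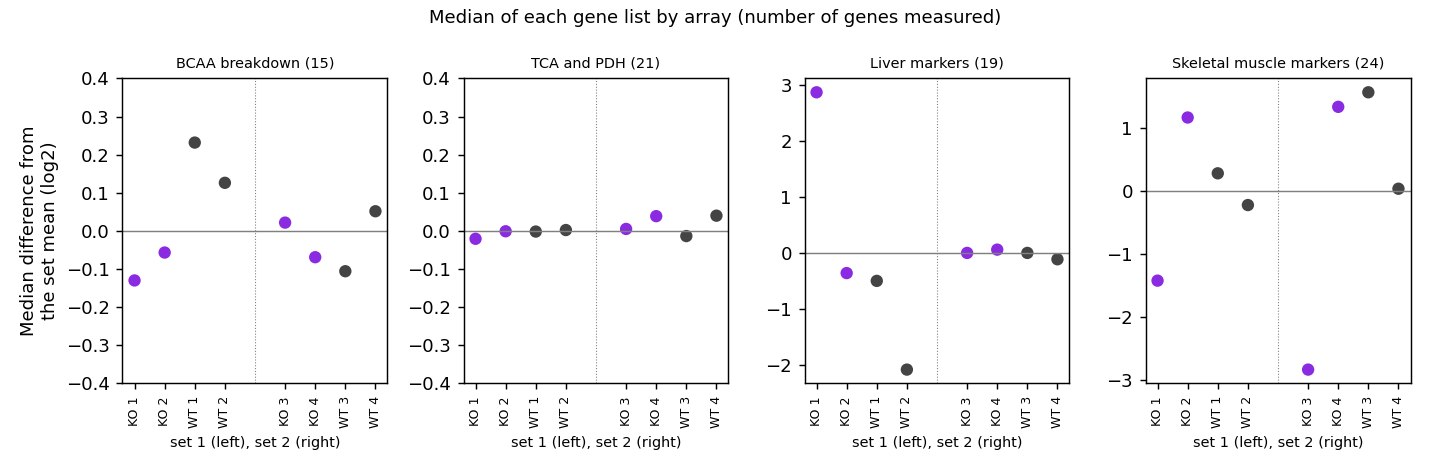
Median log2 difference from the set mean (y axis) of the genes of each list on each array (x axis; set 1 left of the dotted line), KO in purple and WT in grey. The BCAA median separates the genotypes in set 1 only, the TCA median is flat, and the liver and muscle panels, on wider scales, show KO replicate 1 high in liver markers and KO replicate 3 low in muscle markers.

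Among markers of other tissues, the liver median also separated the genotypes in set 1, and the skeletal muscle median did not. The median of 19 liver markers was 10.81 and 7.55 in KO replicates 1 and 2, against 7.11 and 5.37 in WT replicates 1 and 2, and 17 of the 19 were higher in KO. In set 2 it was 4.18 and 4.33 in KO, against 4.23 and 4.31 in WT. The median of 24 skeletal muscle markers was 6.02, 8.91, 5.37 and 10.38 in KO replicates 1 to 4, against 8.08, 7.47, 11.40 and 9.02 in WT replicates 1 to 4, so that KO replicate 3 was lowest. Liver and muscle express genes of both pathways, though not all alike, and the part of other tissues in the differences was not tested. In bulk tissue, fewer cells of a type and less RNA per cell cannot be told apart. Of 12 brown adipocyte markers 3 were higher and 9 lower with the set as a block (median -0.11), and 0 passed. Dio2, the deiodinase that activates thyroid hormone, differed by -4.63 within set 1 and 2.02 within set 2, Ppargc1a, a coactivator of mitochondrial genes, by -0.92 and 1.36, and Otop1 by 1.45 and -1.95. Zic1 differed by 0.43 with the set as a block (0.23 within set 1 and 0.64 within set 2). It was the 1 brown adipocyte marker with an unadjusted p under 0.05 (limma adjusted p = 0.983). Ucp1, Cidea and Cox8b differed by -0.03 to 0.01 with the set as a block. Ucp1 lay within 0.1 of the highest value on all 8 arrays, and Cidea had the same value on all 4 arrays of set 1. The small differences of these 2 therefore do not show that their levels were even. Elovl3 differed by -0.49, and Kcnk3, Prdm16, Cox7a1 and Ebf2 by -0.26 to -0.05. Of 10 general adipocyte markers 1 was higher and 9 lower (median -0.12), and 0 passed. Cebpa differed by -1.23 (limma unadjusted p = 0.00633, adjusted p = 0.983), with -1.69 within set 1 and -0.76 within set 2. Plin1, at -0.62, was parted in opposite order in the sets (0.67 and -1.91). Dgat2 differed by -0.40, Lipe by -0.31, Pparg by -0.16 and Pnpla2 by 0.08. Adipoq, Fabp4, Lpl and Cd36 differed by -0.09 to -0.04, and Fabp4 lay within 0.1 of the highest value on 4 arrays. The part of these markers in the differences was not tested either. Without KO replicates 1 and 3 the BCAA median was -0.18 with the set as a block, and 1 member, Mccc1, stayed below an unadjusted p of 0.05.

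Other genes of the same pathways were read from 2 further lists. Of 26 other TCA cycle and pyruvate genes measured, 11 were higher and 15 lower in KO with the set as a block (median -0.03), and 0 passed. Me2, the mitochondrial malic enzyme that makes pyruvate from malate, had the smallest p. It read 5.32, 5.01, 6.74 and 6.82 in KO replicates 1 to 4, against 5.75, 5.80, 6.85 and 7.08 in WT replicates 1 to 4, a difference of -0.40 (SE 0.12, limma adjusted p = 0.983). Lipt2, which acts in attaching lipoic acid to the E2 subunits, differed by 0.30 (SE 0.14).

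Of 22 other BCAA genes, 6 were higher and 16 lower (median -0.04), and 0 passed. At an unadjusted p under 0.05, 3 of the 22 were lower and 1 was higher, as were 2.33% and 2.48% of all genes. Echs1, the short-chain enoyl-CoA hydratase, differed by -0.21 (SE 0.07, limma adjusted p = 0.983). Echs1 is also on the list of fatty acid oxidation genes below. Acad8, the isobutyryl-CoA dehydrogenase of the valine branch, differed by -0.29 (SE 0.11), and Mmab, which makes the cobalamin cofactor of methylmalonyl-CoA mutase, by -0.21 (SE 0.08). Klf15, a transcription factor that is known to promote BCAA breakdown in muscle and liver of mice, read 8.11, 8.17, 8.30 and 8.83 in KO replicates 1 to 4, against 7.43, 7.51, 8.50 and 8.40 in WT replicates 1 to 4. It differed by 0.39 (SE 0.15), with 0.67 within set 1, where KO was higher in both arrays, and 0.11 within set 2, where the groups overlapped.

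Next to the pathways that share the mitochondrion, the 33 measured genes of respiratory complex I had a median of 0.0052 with the set as a block, -0.02 within set 1 and 0.03 within set 2. The 18 measured fatty acid oxidation genes had medians of -0.08, 0.07 and -0.24. In set 2, 16 of those 18 were lower in KO, whereas 7 of 15 BCAA genes were, and in set 1, 13 were higher, whereas 5 of 15 BCAA genes were. No test of these differences between lists was made.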

How the data were processed

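Brown fat RNA of 8 mice was measured on 1 array each. Per the labels, the authors made the deposited log2 values by RMA in Affymetrix Expression Console. Versions and annotation: not given in the sources used here. Scanner files were not used. Of 72688 probe sets, 6732 are controls, 31216 had 1 gene, 1534 several and 33206 no name here. Symbols were updated through a RefSeq table (GRCm38.p6), which matched 23566 probe sets, and a gene's brightest probe set was kept (30740 genes, 367 with more than 1). The number of arrays limits the precision. Whether replicates differ by more than technical spread rests on the labels, which call them separate mice.

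KO minus WT was fitted over all genes with limma 3.58.1 (R 4.3.3; lmFit, eBayes) with a set term (the block), and again with 1 mean per genotype and set for differences within and between the sets. All 8 arrays gave the spread. The threshold was a Benjamini-Hochberg adjusted p under 0.05. The fit was tested on simulated data. Members, lists, tests and the block were chosen with earlier results of these data known. The planned promoter motif search was not run, and no sequences are shown. Values per array are given for members with an unadjusted p under 0.05, for the 4 smallest p in each within-set and between-set comparison and for Pdha1, Cs and Bckdha; Suclg2, Bcat2 and the members named beyond that rule were chosen after their values were seen. From the lists of other genes, those under 0.05 and at least 2 were named.

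Same-numbered arrays of the genotypes deviated together (r = 0.701, 0.473, 0.478 and 0.61 for replicates 1 to 4), all over 0.1; within a set r was 0.107 in set 1 and -0.0887 in set 2, so this pairing lies between the sets.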

Additional observations from a re-analysis of the deposited data

Results flagged for a closer look

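In 6 members both KO values lay on one side of both WT values in set 1 and on the other side in set 2. The difference in set 2 minus that in set 1 was -0.87 for Idh3g, -0.22 for Ogdh, 0.52 for Suclg2, 0.74 for Bckdhb, -1.18 for Bckdk and 0.73 for Hibch. Tested in limma, 0 of the 6 passed (lowest adjusted p = 0.0905, for Idh3g), and 12.7% of all genes had this pattern.

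In 4 cases 1 array stood well apart from the 3 others of the same genotype: KO replicate 3 for Ogdh (16.97), KO replicate 4 for Pdhb (18.74), WT replicate 4 for Pdha1 (18.05) and WT replicate 2 for Pcca (15.22). Chance alone marks about 1 in 20 groups in this way where all values come from 1 distribution. All 36 members were searched in both genotypes, so that rate alone would mark a few cases, about as many as were found. Each group here holds arrays of both sets, so that rate need not apply.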

How the results depend on the processing

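No member was called under any of the 17 alternatives, and 558 of 612 member values kept their direction with the set as a block. Many of the 612 could not turn. A member's difference stays the same without the set block, with the replicate block, and with trend and robust variances. Filtering low genes, leaving out saturated genes and taking the mean of probe sets also leave it unchanged. The count of 558 therefore overstates how far the directions were tried. The replicate block called 0 genes and changed no call. Members under an unadjusted p of 0.05 numbered 4, against 0 without the set block, 2 after quantile normalization, 2 with trend and robust variances, 1 without KO replicates 1 and 3 (added after the data were seen) and 1 to 4 with single arrays left out. Genes called with the set as a block were 0 to 1 with single arrays left out. Within set 1 they were 0 to 14. Within set 2, 1 gene was called, 0 after quantile normalization and without KO replicates 1 and 3, and 0 to 10 with single arrays left out. For the difference between the sets, 152 genes were called, 82 after median centring, 331 with low genes filtered out, 4 with trend and robust variances, 0 without KO replicates 1 and 3, and 0 to 10 with single arrays left out. Quantile normalization gave TCA and pyruvate dehydrogenase medians of 0.076 in set 1 and -0.11 in set 2, BCAA medians of -0.14 and -0.16, and BCAA minus TCA gaps of -0.22 and -0.046, against gaps of -0.33 and 0.075 as deposited. Median centring gave a TCA median of -0.040 in set 1. Without KO replicates 1 and 3 the set 2 BCAA median was -0.066 and the gap -0.075. With single arrays left out the BCAA median was -0.21 to -0.11 over both sets, -0.35 to -0.22 in set 1 and -0.066 to 0.14 in set 2. The gap was -0.33 to -0.21 in set 1 and -0.075 to 0.11 in set 2, and the TCA median -0.021 to 0.029 in set 2. The cause was not tested.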

Other observations

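Of the 48 measured genes of the 2 further pathway lists, 13 were parted in opposite order in the sets (7 of 26 in the TCA cycle and pyruvate list, 6 of 22 in the BCAA list), as were 12.7% of all genes and 17.9% of those above the olfactory 95th percentile. The 5 described here were chosen among the 13 after their values were seen. Ppm1k, the phosphatase that reactivates BCKDH, read 7.32 and 7.74 in KO against 8.86 and 9.13 in WT in set 1, and 10.11 and 10.91 in KO against 8.80 and 9.66 in WT in set 2. Its difference was -1.46 within set 1 and 1.28 within set 2 (limma adjusted p = 0.0752 for set 2 minus set 1), opposite in sign to the kinase Bckdk in both sets. Slc3a2, the heavy chain of the transporter that carries branched-chain amino acids into cells, read 10.81 and 11.78 in KO against 13.73 and 14.13 in WT in set 1, and 14.80 and 14.27 in KO against 12.92 and 13.17 in WT in set 2. It passed the test of set 2 minus set 1 (4.13, limma adjusted p = 0.0407), the single gene of the 2 further pathway lists to do so, among 152 genes called there, a count that was 0 to 10 when any single array was left out.

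Pdp2, a phosphatase that reactivates pyruvate dehydrogenase, differed by -0.97 within set 1 and 0.69 within set 2. Pdpr, which regulates such phosphatases, differed by 0.49 and -0.52. Oxct1, which activates ketone bodies, differed by -0.91 and 0.34. None of these 3 passed when set 2 was tested against set 1 (limma adjusted p = 0.0748 for Pdp2, 0.0623 for Pdpr and 0.0647 for Oxct1).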
